A study of Mus musculus with 16 samples.

Results

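Solute carriers are membrane proteins that move amino acids, sugars, nucleotides, organic and inorganic ions, vitamins and metals across the plasma membrane and the membranes of organelles. Their mRNAs were examined in livers of cafestol-fed mice. The members were the genes whose single platform symbol starts with Slc and a digit, or with Slco, without Slc27a5, Slc25a20 and Slc25a1. They numbered 142 genes, measured by 149 probes and spread over 46 families, of 8923 genes and unnamed probes in all. Of these, 139 had values in at least 6 mice and were tested, and Slc13a3, Slc27a3 and Slc39a13 were not. Slc9a3r1, a scaffold protein, and Slc4a1ap, an adaptor protein, match the symbol rule but are no carriers, and a further 8 Slc probes shared with another gene are not members.

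The cafestol group was 8 female APOE3Leiden mice, which carry a human apolipoprotein E variant gene, fed diet W with 0.04% cafestol and 0.02% kahweol, both diterpenes of unfiltered coffee, for 4 weeks from 10 weeks of age. The control group was APOE3Leiden females of the same age on diet W alone, a Western-type diet with 15 g fat and 0.25 g cholesterol per 100 g, and the design names 7 of them. Both groups therefore carried the transgene and ate cholesterol, and the strain background was C57BL6/JIco. Liver poly(A) RNA of each cafestol mouse was hybridised in Cy5 on 2 GEM 2.03 cDNA arrays, 16 in all, against control-diet liver RNA in Cy3.

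The liver takes up drugs, other organic ions and fatty acids from blood through carriers of the Slc22, Slc27 and Slco families, exchanges glucose through Slc2a2, and collects glutamate near the central vein through Slc1a2. Carriers of the Slc25 family link the urea cycle, respiration and heme synthesis across the inner mitochondrial membrane.

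The deposited values are log2 ratios of the 2 channels, and the sources used here do not state which channel is on top. Signs are printed as deposited, so "positive" and "negative" name a side and not an increase or a decrease under the diet. Gstm1, a glutathione S-transferase, read -2.48 ± 0.23 (SD, n = 8), and Cyp7a1, which starts bile acid synthesis from cholesterol, read 1.56 ± 0.38, so the negative side is that of Gstm1 and the positive side that of Cyp7a1. Coffee diterpenes are known in rodents to induce glutathione S-transferases and to lower Cyp7a1. A gene was called when the mean of 8 mice differed from 0 in limma with a Benjamini-Hochberg adjusted p under 0.05 over 8348 features. That p holds the spread among cafestol mice and leaves out the spread among control mice. Because the dyes were never swapped, any bias of a probe towards either dye is part of its value in all mice. In whole liver, fewer cells of a type and less RNA per cell cannot be told apart.

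Values are coarse. The smallest step from 0 on an array was 0.138, 31.8% of all array values were exactly 0, and 8094 to 9314 of the probes on an array were valued. Members measured on both arrays of a mouse numbered 132 to 139, and in 5 of 8 mice every one of them agreed within 0.3 log2 units between the arrays. The exceptions were SY518Z (134 of 138), TP4163 (134 of 139) and TP4215 (138 of 139). That limit is wide beside the members' means, whose median size without sign was 0.09, so it says little about small differences. The median gap between the 2 arrays was 0.1255 in SY518Z, 0.066 in TP4205 and 0 in the other mice.

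Solute carriers lay on both sides of 0 with small differences. The positive side held 34 called members, which is 24.5% of those tested, where 18% of all features were called positive. The negative side held 28, or 20.1%, where 25.4% of all features were called negative. In total 62 members were called, 44.6%, beside 43.4% of all features, and 77 were not. The median log2 ratio was -0.02 over members and -0.02 over all features, and the members' means ran from -0.46 to 0.58. Of the called members 18 differed by at least 1.2-fold, 11 positive and 7 negative, and 0 by at least 1.5-fold. A mean of 1.2-fold or more was found in 12.95% of members, against 8.289% of all features. The values shared their sign in all 8 mice in 16 positive and 11 negative members, 19.4% of members against 18.1% of all features. For 17 called members the mean was smaller than the smallest array step. All 62 are named below, and those outside the naming rule were added after their values were seen. Leaving out 1 mouse ended the call of 12 of the 62, for between 1 and 6 of the mice (limma, adjusted p 0.0504 to 0.121), and the other 50 passed whichever mouse was left out. The 12 were Slc2a4, Slc2a8, Slc5a6, Slc16a1, Slc16a7, Slc17a1, Slc20a2, Slc25a33, Slc31a1, Slc35e4, Slc36a1 and Slc43a1.

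Fewer members passed stricter tests. Against a minimum of 1.2-fold, 3 members passed, Slc1a2 and Slc27a2 on the positive side and Slc1a1 on the negative side, beside 1.47% of all features. When the control RNA was treated as a pool of 7 mice with the spread of the cafestol mice, 20 members were positive and 14 negative, beside 21.7% of all features in either direction.

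**Figure D1:**
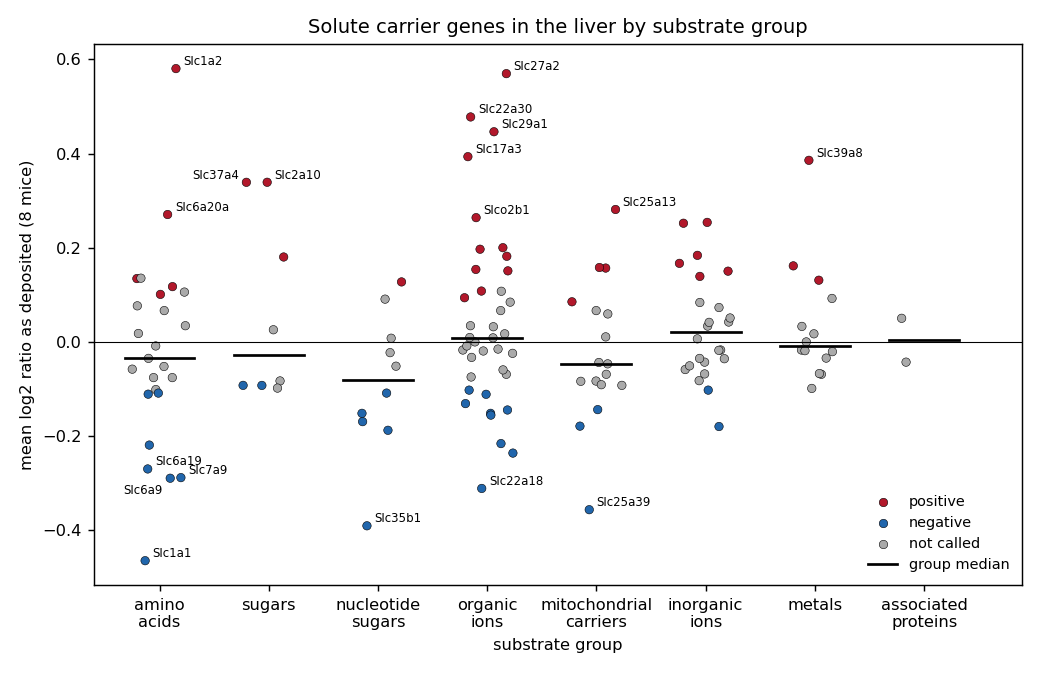
Mean log2 ratio as deposited over 8 cafestol mice for each of the 139 tested solute carrier genes (vertical axis), by substrate group (horizontal axis), with red for called positive, blue for called negative, grey for not called and a bar for the group median. Every group median lies close to 0, and the named genes with the largest differences, Slc1a2 at 0.58 and Slc1a1 at -0.46, are both amino acid carriers.

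Promoter windows of the members were read from RefSeq (GRCm38.p6), from 250 bases before to 50 after each annotated start, on both strands. Of the members, 120 genes had a window. The core of the antioxidant response element, TGACNNNGC, is shown here because it is bound by the transcription factor through which electrophiles induce glutathione S-transferases. It was 1 of 13 motifs searched, all looked at after the values were known, so its shares are a description chosen from several and carry no test. It occurred in 8 of 26 negative, 7 of 27 positive and 9 of 64 uncalled members, against 14% of 27025 genes. Here and below, all genes means every gene with a window, whether on the array or not. They are thus an unlike set to the members, which are all on the array. Members had more windows per gene, 169 for 120 genes against 32851 for all, and per window the core occurred in 18.9% of members' windows and 12.4% of all. The windows below belong to the negative and the positive called members farthest from 0 whose window holds the core, and capitals mark it.
Slc6a9, chr4:117849100-117849399, plus strand: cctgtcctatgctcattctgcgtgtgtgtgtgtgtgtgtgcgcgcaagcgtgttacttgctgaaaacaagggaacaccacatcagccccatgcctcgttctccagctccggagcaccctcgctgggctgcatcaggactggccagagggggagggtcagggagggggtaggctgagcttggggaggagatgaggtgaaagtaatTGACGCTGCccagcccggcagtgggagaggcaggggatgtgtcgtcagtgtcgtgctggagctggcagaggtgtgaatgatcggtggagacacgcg
Slc29a1, chr17:45599569-45599868, minus strand: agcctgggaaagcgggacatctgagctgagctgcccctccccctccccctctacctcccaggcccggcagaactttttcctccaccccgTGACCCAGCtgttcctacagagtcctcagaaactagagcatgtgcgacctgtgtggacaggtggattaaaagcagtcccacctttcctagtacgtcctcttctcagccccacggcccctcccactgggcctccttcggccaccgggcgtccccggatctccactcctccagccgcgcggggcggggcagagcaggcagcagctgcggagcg
In Slc6a9 the core begins 46 bases before the annotated start, and in Slc29a1 it begins 161 bases before it, in a gene with 8 windows. These 2 genes lie on opposite sides of 0.

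The other 12 motifs gave the following shares. CACGTG, the palindromic E-box, occurred in 17.5% of members against 8.09% of all genes, in 7 of 27 positive, 3 of 26 negative and 10 of 64 uncalled members. CCAAT occurred in 39.2% of members against 41.1% of all genes, in 14 of 27 positive, 5 of 26 negative and 27 of 64 uncalled members. The core followed by an A occurred in 1.67% of members against 3.45% of all genes. TTGCATCA occurred in 4 members, 3.33% against 1.03% of all genes. CAAAGTCCA occurred in 2, 1.67% against 0.555%, and CAAGGTCA in 2, 1.67% against 1.76%. TGATGCAAT occurred in 1, 0.833% against 0.222%, and TGACGTCA in 1, 0.833% against 2.03%. The bile acid receptor inverted repeat, the HNF1 palindrome, the direct repeat of nuclear receptors and the endoplasmic reticulum stress element, which contains CCAAT, were found in 0 members. Over the 13 motifs the members' share was above that of all genes for 5 and below it for 8. The motifs found in 0 members occurred in only 13 to 37 of 27025 genes. With 120 members, a share of 0 was nearly fixed for them, so no conclusion is drawn from this tally.

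Amino acid carriers held the members farthest from 0 on each side. Of 25 tested, 5 were positive and 7 negative, or 20% and 28%, with a median of -0.04. For this group and those below, the shares over all features were 18% positive and 25.4% negative. Group counts were not tested against these shares. Slc1a2, the glutamate carrier of perivenous hepatocytes, ranged from 0.20 in SY524ROB+L to 0.85 in TP4215 with a median of 0.61, and all 8 mice were positive. Its mean was 0.58 ± 0.23 (SD, n = 8) (limma, adjusted p = 4.88e-05). Slc1a1, another glutamate carrier of the same family, lay on the opposite side. It ranged from -0.72 in TP4163 to -0.20 in TP4215 with a median of -0.48, all 8 mice negative, and averaged -0.46 ± 0.15 (limma, adjusted p = 1.82e-05). Its SD was 0.05 among SY mice and 0.22 among TP mice.

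The glycine carrier Slc6a9 averaged -0.29 ± 0.09 (from -0.38 to -0.14), negative in 8 of 8 mice. Slc7a9, the light chain of a cystine carrier, averaged -0.29 ± 0.10 (from -0.43 to -0.14), also negative in 8 of 8. Its heavy-chain partner Slc3a1 was not called, at 0.02 ± 0.14. Slc7a7, a cationic amino acid exchanger, averaged -0.22 ± 0.13, and its heavy-chain partner Slc3a2 was not called, at -0.08 ± 0.12. The light chains of both pairs were thus called negative while the heavy chains did not pass the test, and the difference between partners was not tested.

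Slc6a19, a neutral amino acid carrier, averaged -0.27 ± 0.22, and 2 SY mice read 0. The cationic carrier Slc7a1 (-0.11 ± 0.06) and the lysosomal carrier Slc36a1 (-0.11 ± 0.11) were called negative with means below the smallest array step. On the positive side stood the imino acid carrier Slc6a20a (0.27 ± 0.14, positive in 8 of 8), the dipeptide carrier Slc15a2 (0.13 ± 0.09), Slc6a14 (0.12 ± 0.10) and Slc43a1 (0.10 ± 0.10). The uncalled member farthest from 0 was Slc38a1, a glutamine carrier, at 0.14 ± 0.18.

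**Figure D2:**
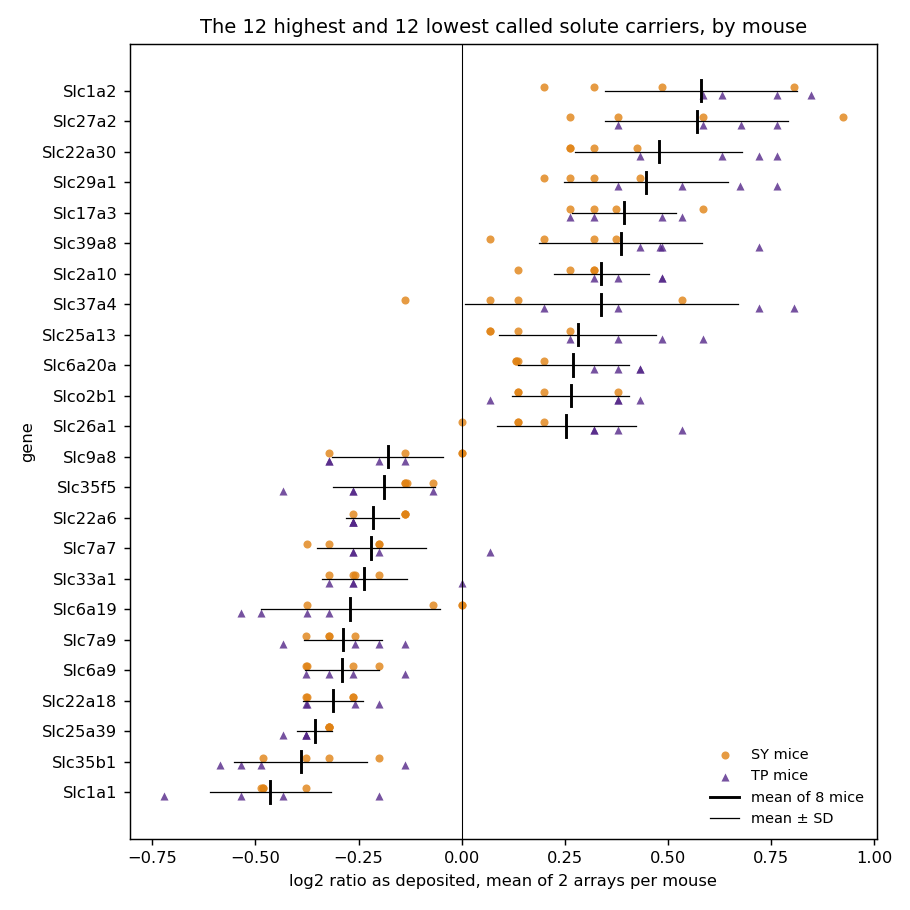
Log2 ratio as deposited (horizontal axis) in each mouse, as the mean of its 2 arrays, for the 12 highest and 12 lowest called members (vertical axis), with circles for SY mice, triangles for TP mice, a tick for the mean of 8 mice and a line for ± SD. Slc25a39 has the narrowest spread (SD 0.04) and Slc37a4 the widest (SD 0.33), with 1 mouse on the negative side.

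Carriers of sugars gave 3 positive and 2 negative calls of 8, with a median of -0.03. Slc37a4, which brings glucose-6-phosphate into the endoplasmic reticulum for the last step of glucose release, ranged from -0.14 in SY522ROB to 0.81 in TP4205 around a median of 0.29. Its mean of 0.34 ± 0.33 passed the test with limma adjusted p = 0.0111, and 7 of 8 mice were positive. The call was lost with SY mice only (0.15, limma adjusted p = 0.371) and with the spread of control mice added (limma, adjusted p = 0.0945). Slc2a10 averaged 0.34 ± 0.11 and was positive in 8 of 8 mice (limma, adjusted p = 4.64e-05). Slc2a2, the main glucose carrier of hepatocytes, averaged 0.18 ± 0.15 and was positive in 7 of 8. Slc2a1, the carrier of most other cells, read 0.03 ± 0.05 and was not called. Slc2a4 and Slc2a8 were negative at -0.09 each (limma, adjusted p = 0.0416 and 0.0463). Both calls were lost without SY521RL, SY518Z, TP4205 or TP4163. That of Slc2a4 was also lost without SY524ROB+L or SY522ROB, and that of Slc2a8 without TP4215. The sugar carrier Slc50a1 was not called, at -0.10 ± 0.18.

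Nucleotide-sugar carriers of family 35 feed the glycosylation reactions of the endoplasmic reticulum and Golgi, and the family also holds members of unknown substrate. Of 10, 5 were negative and 1 positive, with a median of -0.08. Slc35b1, an endoplasmic reticulum member known as an ATP/ADP exchanger, ranged from -0.59 in TP4163 to -0.14 in TP4215 with a median of -0.43, and averaged -0.39 ± 0.16 (limma, adjusted p = 8.99e-05). All 8 mice were negative. Slc35f5 averaged -0.19 ± 0.12, also negative in 8 of 8, and the farthest uncalled member was Slc35a5 at 0.09 ± 0.23. The UDP-galactose carrier Slc35a2 (-0.15 ± 0.03) and the CMP-sialic acid carrier Slc35a1 (0.13 ± 0.04) supply successive sugars of the same glycans and lay on opposite sides. Slc35d1, a UDP-glucuronic acid carrier (-0.17 ± 0.17), and Slc35e4 (-0.11 ± 0.11) were the remaining negative calls. The 2 probes of Slc35c1, the GDP-fucose carrier, disagreed in sign, at -0.10 and 0.07, and neither was called. Slc35c1 was named after its values were seen.

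**Figure D3:**
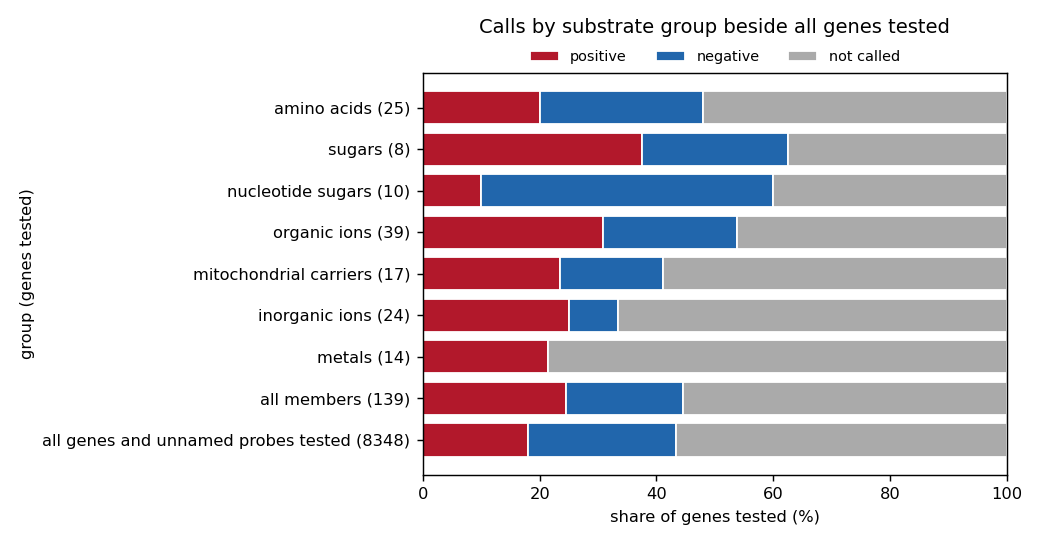
Share of tested genes called positive (red), called negative (blue) and not called (grey), in percent (horizontal axis), for each substrate group with its number of tested genes, for all members and for all 8348 features (vertical axis). Negative calls make up 50% of the 10 family 35 genes and 0% of the 14 metal carriers. In these groups 1 gene makes up 10% and 7.1%.

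Organic ion, drug, vitamin and fatty acid carriers were the largest group, with 12 positive and 9 negative calls among 39 tested and a median of 0.01. Slc27a2, a fatty acid carrier and very long-chain acyl-CoA synthetase of hepatocytes, ranged from 0.26 in SY524ROB+L to 0.92 in SY518Z around a median of 0.59, positive in 8 of 8. It averaged 0.57 ± 0.22, a 1.48-fold difference (limma, adjusted p = 4.22e-05). Slc27a4, of the same family, lay on the other side at -0.10 ± 0.06.

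Slc29a1, the equilibrative nucleoside carrier, ranged from 0.20 to 0.77 and averaged 0.45 ± 0.20 (limma, adjusted p = 0.000117). Slc17a3, an organic anion and urate carrier, ranged from 0.26 to 0.59 and averaged 0.39 ± 0.13. The drug and steroid conjugate carrier Slco2b1 averaged 0.26 ± 0.14. Each of the 3 was positive in 8 of 8 mice.

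Family 22 of organic anion and cation carriers gave 1 positive and 4 negative calls of 9, where 18% and 25.4% of all features were called. Slc22a30 averaged 0.48 ± 0.20 and was positive in 8 of 8. Slc22a18 (-0.31 ± 0.07) and Slc22a6, the organic anion carrier best known from kidney (-0.22 ± 0.07), were negative in 8 of 8. The carnitine carrier Slc22a5 was not called, at 0.07 ± 0.14, and Slc22a12, singled out after its values were seen, read 0 in every mouse. No intensities were used here, so whether such a probe had signal above background is not known.

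Slc33a1, which carries acetyl-CoA into the endoplasmic reticulum, averaged -0.24 ± 0.10. The lactate and pyruvate carrier Slc16a1 averaged -0.13 ± 0.14 (limma, adjusted p = 0.0328), and leaving out any 1 of 4 of the mice lost the call (limma, adjusted p 0.0640 to 0.0872). The remaining negative calls were the organic anion carrier Slc22a8 (-0.16 ± 0.13), the lipocalin receptor Slc22a17 (-0.15 ± 0.07), the reduced folate carrier Slc19a1 (-0.14 ± 0.04) and the urate carrier Slc17a1 (-0.11 ± 0.12). Positive calls of moderate size were the lysosomal carrier Slc46a3 (0.20 ± 0.12), the creatine carrier Slc6a8 (0.18 ± 0.11), Slc18b1 (0.15 ± 0.08), the urea carrier Slc14a1 (0.15 ± 0.08), the monocarboxylate carrier Slc16a7 (0.11 ± 0.12) and the multivitamin carrier Slc5a6 (0.09 ± 0.06). The choline carrier Slc44a1 averaged 0.20 ± 0.18. The farthest uncalled member was the sulfate carrier Slc13a4, at 0.11 ± 0.13. It was counted in this group with the rest of family 13, although sulfate is an inorganic ion.

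Mitochondrial carriers of family 25 gave 4 positive and 3 negative calls of 17, with a median of -0.05. Slc25a39, which brings glutathione into mitochondria, varied little between mice. It read -0.32 in each of the 4 SY mice and between -0.43 and -0.38 in the TP mice, with a mean of -0.36 ± 0.04 (limma, adjusted p = 2.8e-06). The SY and TP values did not overlap, and the difference between them was not called. Slc25a13, the aspartate/glutamate carrier that serves the urea cycle, ranged from 0.07 to 0.59 and averaged 0.28 ± 0.19, positive in 8 of 8. The adenine nucleotide translocases differed in call: Slc25a5 averaged -0.18 ± 0.15 and was negative in 7 of 8, and Slc25a4, at -0.09 ± 0.13, did not pass. The dicarboxylate carrier Slc25a10 (-0.08 ± 0.11) and Slc25a14 (-0.09 ± 0.11) were not called. Slc25a46, a protein of the outer mitochondrial membrane, and the coenzyme A carrier Slc25a42 were positive at 0.16 ± 0.10 and 0.16 ± 0.11, as was the pyrimidine nucleotide carrier Slc25a33 (0.09 ± 0.08), and the branched-chain amino acid carrier Slc25a44 was negative at -0.14 ± 0.07. The ATP-Mg/phosphate carrier Slc25a25 varied most in the family, from -0.63 in TP4215 to 0.37 in SY522ROB, and was not called at -0.05 ± 0.33. It was named after its values were seen.

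Inorganic ion carriers gave 6 positive and 2 negative calls of 24, with a median of 0.02. The sulfate and oxalate carrier Slc26a1 averaged 0.25 ± 0.17, with 7 mice positive and 1 at 0. The sodium/proton exchanger Slc9a8 averaged -0.18 ± 0.14, with 6 mice negative and 2 at 0. The other positive calls were Slc4a11 of the bicarbonate family (0.25 ± 0.10), the magnesium carrier Slc41a3 (0.18 ± 0.07), the sodium/calcium/potassium exchanger Slc24a3 (0.17 ± 0.09), and the phosphate carriers Slc34a2 (0.15 ± 0.10) and Slc20a2 (0.14 ± 0.14). The anion exchanger Slc4a2 was negative at -0.10 ± 0.07. Slc41a1, another magnesium carrier, was not called, at 0.08 ± 0.21.

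Metal carriers gave 3 positive and 0 negative calls of 14, with a median of -0.01. Slc39a8, an importer of zinc and manganese, ranged from 0.07 in SY521RL to 0.72 in TP4215 and averaged 0.39 ± 0.20 (limma, adjusted p = 0.000302), positive in 8 of 8. Its relative Slc39a14 averaged 0.16 ± 0.07, positive in 8 of 8, and its 2 probes agreed at 0.16 each. The third call was the copper importer Slc31a1, at 0.13 ± 0.14. The iron importer Slc11a2 (-0.02 ± 0.14) and the zinc carrier Slc39a7 (-0.10 ± 0.16) were not called, although Slc39a7 was called negative, at -0.13, without SY522ROB. Neither associated protein was called, with Slc4a1ap the farther at 0.05 ± 0.11.

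Of 34 carriers listed for their known part in liver transport, 17 were tested here, 8 were positive and 2 negative. Of all features, 18% were called positive and 25.4% negative. The list was chosen with earlier results of these data known, and its counts were not tested against all features. The tested carriers are named above with their substrate groups.

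The mouse identifiers begin with SY in 4 mice and TP in 4, and the labels do not say what the prefixes mean. Array codes nearly follow them: the arrays of SY mice carry the code c3z and those of TP mice bl7, except that SY518Z has 1 of each. With the diet held constant, 7 of 138 members differed between SY and TP mice (limma, adjusted p under 0.05 over 8240 features). These 7 are 5.07% of members, beside 4.96% of all features. All 7 members were called lower in SY, again 5.07% of members, where 3.86% of all features were called lower in SY. Of the 409 features that differed, 318 were lower in SY, so most of them shared the direction of the 7 members. At an unadjusted p under 0.05 there were 41 members, 29.7% beside 24.5% of all features. SY and TP mice did not overlap in 16 members, 11.6% beside 9.89% of all features.

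Slc22a30 averaged 0.32 ± 0.08 in SY and 0.64 ± 0.15 in TP mice (SD, n = 4 each), a difference of -0.32 (limma, adjusted p = 0.0359). That call was lost after quantile normalization (-0.23, limma adjusted p = 0.0810) and with scaled arrays (-0.23, limma adjusted p = 0.0973). Slc44a1 averaged 0.05 ± 0.10 in SY and 0.35 ± 0.07 in TP mice, a difference of -0.30. Slc25a13 averaged 0.13 ± 0.09 in SY and 0.43 ± 0.14 in TP mice, a difference of -0.29. Adjusted p-values of the 7 ran from 0.0262 to 0.0498 (limma). These 3 were called positive over all 8 mice. Slc26a1 (difference -0.27) and Slc6a20a (-0.24) were also among the positive calls. Slc6a18, a neutral amino acid carrier (-0.25), and Slc7a10, a small neutral amino acid exchanger (-0.22), were not called over all mice. Slc7a10 averaged -0.17 ± 0.04 in SY and 0.05 ± 0.03 in TP mice.

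The 2 arrays of SY518Z hold the same RNA under both codes. For these 7 genes the bl7 array read higher than the c3z array in 5, the same in 2 and lower in 0. The 7 were picked for lying higher in TP mice, whose arrays have the bl7 code. Over all members valued on both arrays the bl7 array was higher in 26.1%, the same in 34.1% and lower in 39.9%, and over all features higher in 26.4% and lower in 40.9%. The gap was 0.32 in Slc22a30, 0.26 in Slc6a18, Slc6a20a and Slc7a10, 0.13 in Slc26a1 and 0 in Slc25a13 and Slc44a1. Mouse series and array code cannot be told apart in the remaining mice. The count also rests on single mice: it was 0 without SY521RL, SY524ROB+L or SY522ROB, 24 without SY518Z, 1 without TP4215 or TP4205, 2 without TP4168 and 8 without TP4163. The count over all 8240 features also moved, to 43 without SY521RL, 52 without SY524ROB+L, 57 without SY522ROB and 1245 without SY518Z, the last of which is 15.1% of all features beside 17.4% of members.

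**Figure D4:**
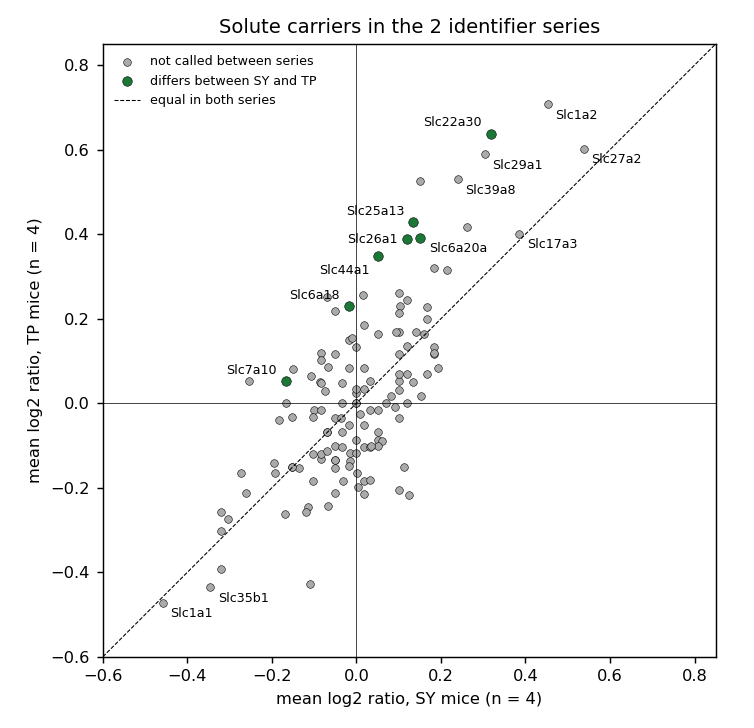
Mean log2 ratio as deposited in the 4 SY mice (horizontal axis) against the 4 TP mice (vertical axis) for 138 members, with green for the 7 that differ between the series and a dashed line where both are equal. All 7 lie above the line, from Slc7a10 at -0.17 in SY and 0.05 in TP to Slc22a30 at 0.32 in SY and 0.64 in TP.

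Called positive members were larger in size in TP mice in 27 of 34, with medians of 0.15 in SY and 0.23 in TP, and 65.65% of all positive features were. Called negative members were larger in size in TP mice in 17 of 28, with medians of -0.15 in SY and -0.18 in TP, and 66.98% of all negative features were.

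Other transport genes were read for comparison, where 18% of all features were called positive and 25.4% negative. Genes with ABC transporter symbols, from Abca to Abcg, gave 6 positive and 11 negative calls of 27, or 22.2% and 40.7%. Their median was -0.06. The list was taken by symbol and includes the Abcf genes, which are no membrane transporters. The sterol exporter subunit Abcg5 was the highest at 0.44 ± 0.16 and was named after its value was seen. These lists were not tested as sets. Aquaporins gave 1 positive and 1 negative call of 6. The sodium pump, which makes the gradient that many carriers use, was measured through 2 subunits, Atp1a4 (-0.04 ± 0.19, n = 7) and Atp1b3 (0.14 ± 0.18), and neither was called. Of 3 regulators of the Fxyd family, Fxyd5 was negative at -0.19 ± 0.14 and Fxyd1 and Fxyd2 were not called.

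Markers of other cell types were called in part, where 25.4% of all features were called negative and 18% positive. Bile duct markers Krt19 (-0.36 ± 0.15) and Epcam (-0.42 ± 0.24) were negative, 2 of 3 measured. Stellate cell markers Acta2 (-0.49 ± 0.28) and Col1a1 (-0.31 ± 0.28) were negative, 2 of 4. Of 7 macrophage markers, Cd68 (-0.65 ± 0.22) and Lyz2 (-0.16 ± 0.18) were negative and Spi1 (0.29 ± 0.10) positive. Of 4 hepatocyte markers, Apoa1 was negative at -0.52 ± 0.35, Hnf4a positive at 0.10 ± 0.08, and Alb and Ttr were not called. Lymphocyte (1 of 2), adipocyte (1 of 3) and kidney tubule (1 of 3) lists had 1 negative call each, and erythroid markers 0 of 2. The adipocyte call is the member Slc2a4 at -0.09, which was lost when any 1 of 6 of the mice was left out. The members Slc11a1, Slc4a1, Slc12a1 and Slc2a4 stand in these lists too. The part of these cells in the carriers' values was not tested.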

How the data were processed

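The deposited values have the form of log2 ratios of the Cy5 and Cy3 channels that the labels describe, as read from the values themselves. How arrays were normalized, how background was handled, why some values are blank and which channel is on top are not stated in the sources used here. Each value is the log2 of a ratio rounded to 1 decimal, or its negative, and all 16 array medians were 0, so values were used as deposited. Of 9596 probes, 7407 had 1 symbol in the platform annotation of 2007, 437 several and 1752 none. Probes of a gene were averaged, then the 2 arrays of each mouse, which hold the same RNA and count as 1 replicate. The mean of 8 mice was tested against 0, and SY minus TP with values in at least 3 mice of each, using moderated two-sided tests of limma 3.58.1 (R 4.3.3) with Benjamini-Hochberg adjustment over all features, checked on simulated data. Members and lists were chosen with earlier results of these data known. Named genes were the 12 highest and 12 lowest called members, the farthest uncalled member of each substrate group, members differing between SY and TP, and a list of liver carriers; others are marked in the text. Promoter motifs were searched in Python 3.11.15, and figures drawn with matplotlib 3.10.9.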

Additional observations from a re-analysis of the deposited data

Results flagged for a closer look

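Among the 46 genes named by rule, 5 had 1 mouse far from the other 7 by Dixon's test at the 95% level, and chance flags about 1 in 20. Slc13a4 was highest in TP4215 at 0.38. Slc25a10 was lowest in TP4215 at -0.32. Slc2a2 was lowest in SY522ROB at -0.14. Slc33a1 was highest in TP4215 at 0.0, and Slc7a7 was highest in TP4215 at 0.069. TP4215 is the outlying mouse in 4 of these 5 genes.

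SY and TP mice differed under the same diet in Slc22a30 (SY minus TP -0.32), Slc44a1 (-0.30), Slc25a13 (-0.29), Slc26a1 (-0.27), Slc6a18 (-0.25), Slc6a20a (-0.24) and Slc7a10 (-0.22), each tested with limma.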

How the results depend on the processing

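Counts of called members kept within 1.5 times of 34 positive and 28 negative under other filters on blanks, scaling, quantile normalization, single probes, robust moderation, first or second arrays, arrays blocked by mouse and TP mice only. They were 19 and 16 with SY mice only, 2 and 1 against a minimum of 1.2-fold, and 20 and 14 with the spread of control mice added. With SY mice only 25.2% of members and 24.9% of all features were called, and with the spread of control mice 24.5% of members and 21.7% of all features. Among genes named by rule, Slc37a4, Slc6a19, Slc9a8, Slc44a1, Slc2a2, Slc16a1 and Slc25a5 lost the call under both settings, and Slc25a13 and Slc26a1 with SY mice only. Outside the rule, Slc2a8, Slc4a2, Slc5a6, Slc6a14, Slc7a1, Slc15a2, Slc16a7, Slc20a2 and Slc22a8 lost it under both. So did Slc25a33, Slc25a42, Slc27a4, Slc31a1, Slc35d1, Slc35e4, Slc36a1 and Slc43a1. Slc6a8, Slc18b1, Slc25a44 and Slc46a3 lost it with SY mice only. Slc2a4, Slc17a1, Slc25a46 and Slc34a2 lost it with the spread of control mice only. Leaving out each mouse gave 30 to 34 positive and 23 to 30 negative members. The count differing between SY and TP was 4 after quantile normalization, where Slc22a30, Slc26a1, Slc6a18 and Slc6a20a lost the call, and 0 to 24 when each mouse was left out. Of 968 alternatives for named genes, 888 kept direction and side of the threshold and 49 lost the call, 26 of them against the minimum of 1.2-fold. Filters on blanks, and single probes for genes with 1 probe, could not move these means, so part of the 888 was nearly fixed in advance. Another 20 gained a call and 11 changed sign, all in uncalled genes. With SY mice only, Slc35a5 was -0.069, Slc39a7 0.017, Slc3a1 -0.083, Slc41a1 -0.050, Slc50a1 0.0028 and Slc6a18 -0.019. With TP mice only, Slc11a2 was 0.065 and Slc7a10 0.052. Leaving out each mouse put Slc11a2 between -0.052 and 0.0049, the last without SY521RL, and Slc3a1 was -0.0025 after scaling and -0.016 on second arrays. The causes were not tested. No paired analysis was possible because all samples belong to 1 group. Signal over background is not known here, so dim probes were not separated. The number of mice and the absence of control arrays limit the precision.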
